A study of Mus musculus with 12 samples.

Results

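Gene expression in the ascending aorta was compared with that in the superior mesenteric artery, the vessel that carries blood from the abdominal aorta to the intestine. The comparison used 6 of the 12 arrays in the series, chosen by the vessel in their labels: 3 of ascending aorta and 3 of superior mesenteric artery, here called mesenteric artery. It was also made without the first ascending aorta replicate, with 5 arrays of the pair. Both groups came from wild-type C57BL/6 mice aged 8 weeks that had received no treatment, and each array measured biotin-labelled cRNA made from total RNA of the whole vessel sample. The series, whose other arrays are of coronary artery and descending aorta, asks whether the embryonic origin of a vessel shows in its expression profile. The replicates are labelled biological with no word on whether 1 animal or several gave each, so the p-values measure only the spread between these samples, some of which may be technical.

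The ascending aorta is an elastic artery at the outlet of the heart, and its smooth muscle descends from neural crest and second heart field cells. The superior mesenteric artery is a muscular artery of the gut mesentery, whose wall arises from trunk mesoderm. Arteries are sheathed in perivascular fat, which around the thoracic aorta of the mouse is brown and in the mesentery is white. Brown adipocytes burn fatty acids in their many mitochondria and release the energy as heat through the uncoupling protein Ucp1. Mesenteric tissue also holds lymph nodes, mesothelium and, close by, pancreas.

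Values are log2 levels as the authors deposited them. For a gene the levels of replicates 1, 2 and 3 are given in that order for each vessel, and differences are ascending aorta minus mesenteric artery in log2 units ± SE. A gene is called higher or lower where limma's adjusted p is below 0.05 over 19938 genes. Unless said otherwise the model holds all 12 arrays, and array medians lay between 4.04 and 4.18. No detection calls were used, so a level near 3, where the 4 intestinal epithelium markers averaged between 2.84 and 3.10 in all 6 arrays, cannot be told from background. A fold against such a level may be too small.

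Markers of the vessel wall were present in both groups, and several arrays carried transcripts of other tissues. Averages over 8 smooth muscle markers were 6.42, 8.22 and 8.28 in ascending aorta and 9.45, 6.29 and 6.74 in mesenteric artery. Endothelial markers averaged between 5.28 and 7.77 and fibroblast markers between 6.19 and 8.23. Ascending aorta replicate 1 stood apart: its 4 B cell markers averaged 8.38 against 4.33 and 4.96 in replicates 2 and 3, and its T cell markers 7.83 against 3.77 and 4.90. That array was also the lowest of the ascending aorta arrays in smooth muscle, fibroblast and adipocyte markers. Mesenteric artery replicates 2 and 3 had B cell averages of 7.89 and 7.40, and replicate 3 had a pancreatic acinar average of 9.68, against 5.56 and 4.44 in replicates 1 and 2 and at most 3.81 in ascending aorta. Cardiomyocyte markers averaged between 3.99 and 4.27 in ascending aorta and were higher in mesenteric artery, at 5.44, 4.65 and 5.43. The 4 mesothelial markers averaged 3.80, 5.95 and 6.69 in ascending aorta and 5.90, 8.10 and 7.87 in mesenteric artery. In such bulk samples fewer cells of a type and less RNA per cell cannot be told apart. Results are given below with and without ascending aorta replicate 1.

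**Figure D1:**
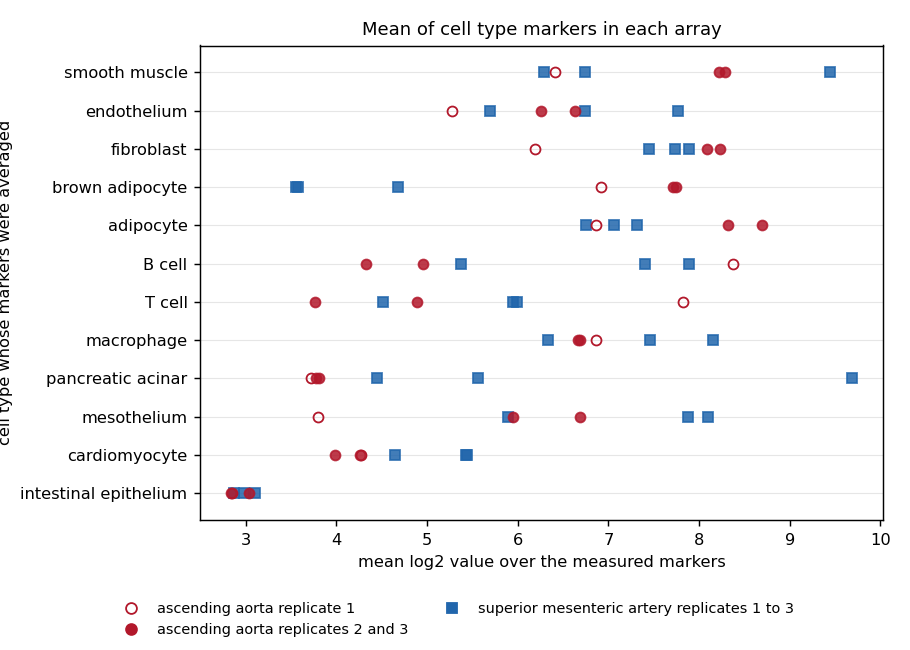
Mean log2 level of each cell type's markers (vertical axis) in each of the 6 arrays (horizontal axis, log2). Open circles are ascending aorta replicate 1, filled circles its replicates 2 and 3, and squares the mesenteric artery arrays. Replicate 1 stands to the right of all other arrays for B and T cell markers, and brown adipocyte markers lie between 6.92 and 7.75 in ascending aorta and between 3.55 and 4.68 in mesenteric artery.

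With all 12 arrays, 35 genes differed between the vessels, 0.176% of those tested. They comprised 27 higher in ascending aorta, 0.135% of genes, and 8 lower, 0.0401%. For all 35 the 3 arrays of one vessel lay clear of the 3 of the other. Genes whose arrays did not overlap made up 4.73% of all genes with ascending aorta above and 4.62% with it below. Of the 27 higher genes, 19 belonged to a list of fat, fatty acid or mitochondrial genes. These lists held 188 of the 19938 genes and were chosen with earlier results of these data known. In 25 of the 27, replicate 1 was the lowest of the ascending aorta arrays. Without that array 628 genes were called, 3.15% of those tested, with 484 higher (2.43%) and 144 lower (0.722%). All 35 were among them. At an unadjusted p below 0.05 in limma, 750 of the 19938 genes were higher and 689 lower with all arrays. Without replicate 1 these counts were 1438 and 1266.

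The calls depended on single arrays. Leaving out replicate 2 of the ascending aorta gave 6 higher and 1 lower gene, leaving out its replicate 3 gave 5 and 1, and leaving out mesenteric artery replicate 3 gave 5 and 3. Without mesenteric artery replicate 1 the counts were 33 and 44, and without replicate 2, 12 and 13. Leaving out a coronary artery or descending aorta array left between 15 and 19 higher and between 4 and 6 lower. With the spread estimated from the 6 arrays of the pair alone, limma called 0 genes, with 506 higher and 418 lower at an unadjusted p below 0.05, and without ascending aorta replicate 1 it called 215 higher and 25 lower. Across the 12 fits that left out 1 array, 6 of the 35 genes passed every time: Cidea, Cox7a1, Cox8b, Fabp3, Pank1 and Tmem88. Of the 188 measured metabolic list genes, 130 were higher without ascending aorta replicate 1, against 2.43% of all genes. Leaving out a further ascending aorta array from that model keeps 1 array of the vessel, and the spread then comes from the other vessels. Of these 130, 75 passed in each of the 11 fits that left out a further array.

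**Figure D2:**
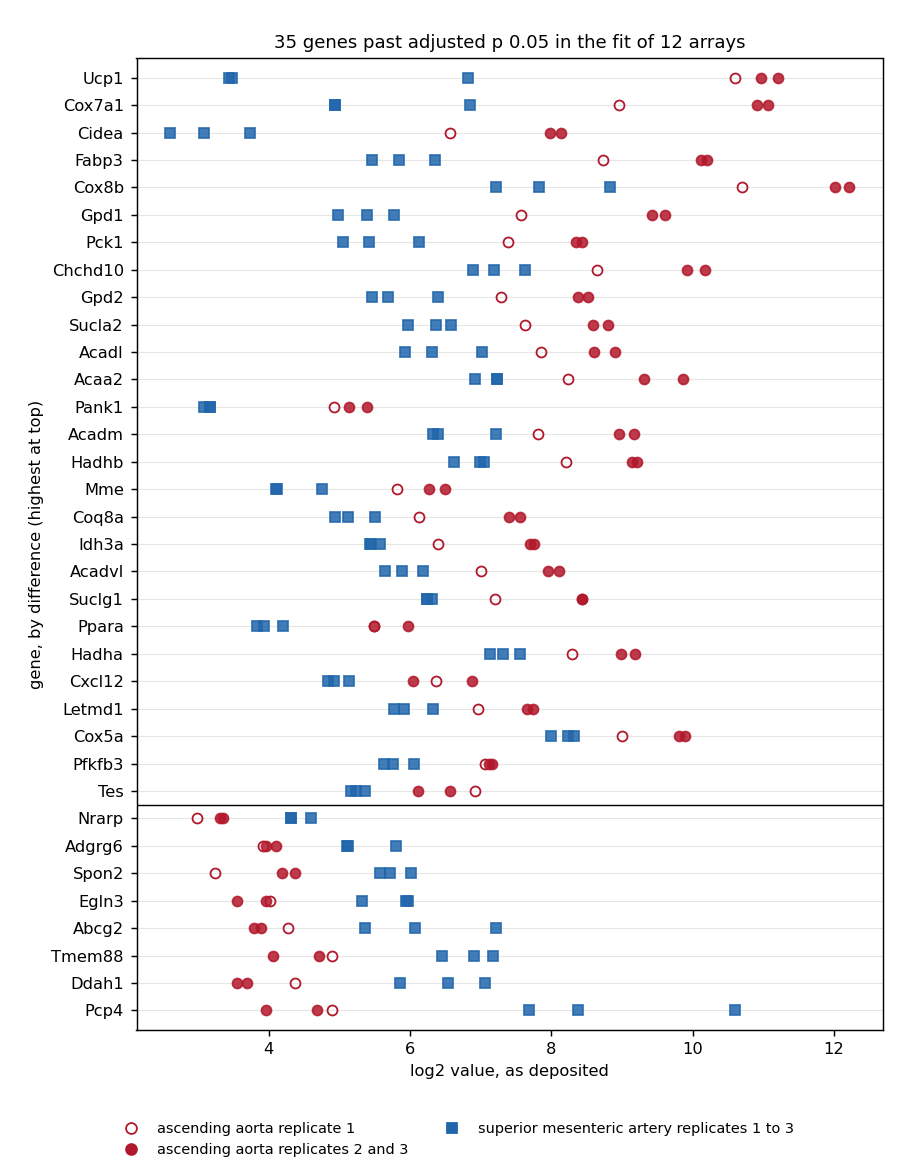
Log2 level (horizontal axis) of the 35 genes past an adjusted p of 0.05 with 12 arrays, 1 row per gene, in order of the difference, with higher genes above the line and lower genes below it. Symbols are as in the plot of marker means. The vessels do not overlap in any row, and the open circles of replicate 1 lie nearest to the squares in 25 of the 27 upper rows.

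The largest difference was in Ucp1, the proton channel that uncouples respiration from ATP synthesis in brown fat. Its levels were 10.60, 11.21 and 10.97 in ascending aorta and 3.47, 6.82 and 3.43 in mesenteric artery. Ascending aorta lay high in every array, and among mesenteric artery arrays replicate 2 stood well above the other pair without reaching the aorta's range. The difference was 6.35 ± 0.83 (limma adjusted p = 0.00885), an 81.7-fold ratio, and 6.52 ± 0.91 without ascending aorta replicate 1. The adjusted p of Ucp1 was 0.0542, 0.0572 and 0.065 when ascending aorta replicate 2, its replicate 3 or mesenteric artery replicate 3 was left out, and each of those fits kept a difference between 5.78 and 6.33. Cidea, a lipid droplet protein typical of brown adipocytes, had levels of 6.57, 7.98 and 8.13 in ascending aorta and 3.09, 3.74 and 2.60 in mesenteric artery. The groups were far apart, by 4.42 ± 0.38 (limma adjusted p = 0.000898) and by 4.91 ± 0.28 without replicate 1. The nuclear receptor Ppara, which drives genes of fatty acid oxidation, had levels of 5.48, 5.48 and 5.98 in ascending aorta and 4.20, 3.84 and 3.93 in mesenteric artery. Its difference was 1.66 ± 0.24 (adjusted p = 0.0139) and 1.74 ± 0.26 without replicate 1, which was level with replicate 2.

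Of 18 measured brown adipocyte genes, 5 were higher with all arrays and 9 without replicate 1, and none was lower, with median differences of 1.002 and 1.22 against -0.01 and -0.02 over all genes. The shares of all genes called higher were 0.135% and 2.43%. The 5 became 3 without ascending aorta replicate 2, its replicate 3 or mesenteric artery replicate 3. The 4 added were Dio2, the deiodinase that activates thyroid hormone, Pdk4, Prdm16, a regulator of brown fat identity, and Otop1. Dio2 levels were 4.61, 6.06 and 6.37 in ascending aorta and 4.21, 3.68 and 3.99 in mesenteric artery, so replicate 1 lay closer to the mesenteric arrays than to its own group. Its difference was 1.72 ± 0.40 with all arrays (adjusted p = 0.145) and 2.25 ± 0.29 without replicate 1 (adjusted p = 0.000807). Prdm16 levels were 3.81, 4.91 and 5.39 in ascending aorta and 4.07, 3.60 and 3.73 in mesenteric artery, with replicate 1 inside the mesenteric range, and differences of 0.91 ± 0.37 and 1.35 ± 0.31 (adjusted p = 0.0313). Not every brown fat gene passed. Ppargc1a, a coactivator of mitochondrial biogenesis, had levels of 5.002, 5.36 and 5.32 in ascending aorta and 5.65, 4.10 and 3.24 in mesenteric artery, with the highest value in mesenteric artery replicate 1. Elovl3, a fatty acid elongase of brown fat, was between 2.15 and 3.85 in all 6 arrays.

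**Figure D3:**
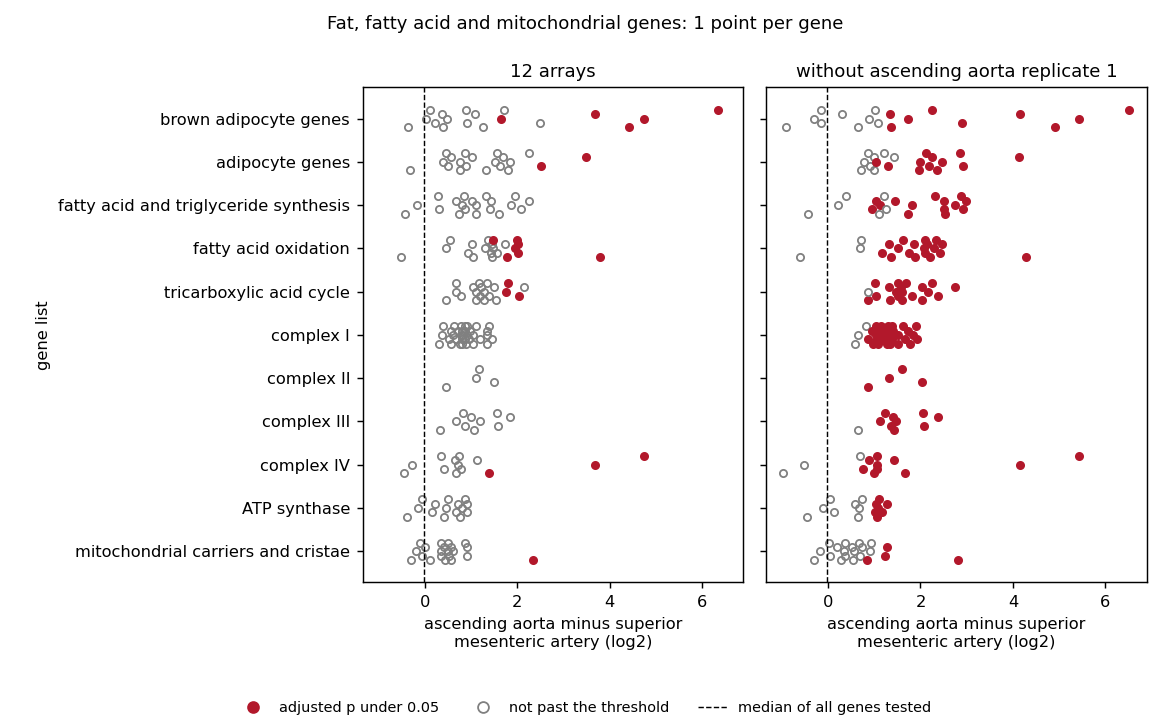
Difference between ascending aorta and mesenteric artery in log2 units (horizontal axis) for each measured gene of 11 lists (vertical axis), with all 12 arrays on the left and without ascending aorta replicate 1 on the right. Filled points passed an adjusted p of 0.05, open points did not, and the dashed line is the median of all genes tested. Most points of every list lie to the right of that line in both panels, and many more are filled on the right.

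Genes of mitochondrial fatty acid oxidation were the group with the most calls in the fit of all arrays. Of 21 measured, 7 were higher and none lower, while 18 were higher without replicate 1, with median differences of 1.46 and 1.89. Over all genes 0.135% and 2.43% were higher. The count of 7 fell to 1 without ascending aorta replicate 2, replicate 3 or mesenteric artery replicate 3. Fabp3, which carries fatty acids through the cytoplasm, had levels of 8.74, 10.12 and 10.20 in ascending aorta and 5.46, 6.36 and 5.84 in mesenteric artery. The vessels lay far apart, with a difference of 3.80 ± 0.35 (adjusted p = 0.00104) and 4.28 ± 0.25 without replicate 1. Of the acyl-CoA dehydrogenases, which take the first step of each round of oxidation, those for very long, long and medium chains passed. Acadvl differed by 1.79 ± 0.27, Acadl by 2.03 ± 0.31 and Acadm by 2.005 ± 0.34, with adjusted p of 0.0226, 0.0231 and 0.038. Without replicate 1 the 3 differences were 2.13 ± 0.22, 2.33 ± 0.29 and 2.42 ± 0.27. Acads, the short-chain enzyme, differed by 1.03 ± 0.29 (adjusted p = 0.274) and by 1.37 ± 0.25 without replicate 1 (adjusted p = 0.0084). Acaa2, the thiolase that splits off acetyl-CoA, had levels of 8.23, 9.86 and 9.32 in ascending aorta and 7.22, 7.23 and 6.91 in mesenteric artery, and differed by 2.02 ± 0.33 (adjusted p = 0.0346) and by 2.47 ± 0.23 without replicate 1. Cpt1a, the liver form of the enzyme that admits fatty acids to mitochondria, did not pass, with levels of 5.24, 4.64 and 5.21 in ascending aorta and 6.08, 5.26 and 5.28 in mesenteric artery. The highest value of Cpt1a was in mesenteric artery replicate 1. Its differences were -0.51 ± 0.25 and, without ascending aorta replicate 1, -0.61 ± 0.27 (adjusted p = 0.722 and 0.328).

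Hadha and Hadhb encode the subunits of the mitochondrial trifunctional protein, which carries out the later steps of long-chain oxidation. Hadha levels were 8.29, 9.18 and 8.98 in ascending aorta and 7.55, 7.31 and 7.13 in mesenteric artery, and Hadhb levels were 8.21, 9.22 and 9.14 in ascending aorta and 7.05, 6.99 and 6.63 in mesenteric artery. Each gene separated the vessels, with replicate 1 the lowest aortic array, and the differences were 1.49 ± 0.24 and 1.96 ± 0.26 (adjusted p = 0.0346 and 0.00885). Without replicate 1 they were 1.75 ± 0.22 and 2.29 ± 0.21. Both probe sets of Hadhb gave like differences. The genes lie head to head on mouse chromosome 5, with 272 bases between their first transcribed bases in the RefSeq annotation of GRCm38.p6, so 1 stretch of DNA is upstream of both. It is shown because these members changed together. The 250 bases before Hadhb, at chr5:30155003-30155252 on the plus strand, hold 2 copies of GGGCGG, the GC box bound by Sp1-like factors, in capitals:

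Hadhb: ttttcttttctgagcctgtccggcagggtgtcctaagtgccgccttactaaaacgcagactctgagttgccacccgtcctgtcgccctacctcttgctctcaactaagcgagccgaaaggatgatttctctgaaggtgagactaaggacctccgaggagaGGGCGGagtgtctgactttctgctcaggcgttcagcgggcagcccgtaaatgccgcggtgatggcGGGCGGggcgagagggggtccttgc

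In RefSeq promoters 23 of the 27 higher genes and 6 of the 8 lower genes had an entry. GGGCGG, sought on both strands in the 250 bases before each start, was present in 14 of the 23 higher and 4 of the 6 lower genes, against 49.3% of 15614 genes. CCAAT, the letters bound by NF-Y, was present in 6 of 23 and 1 of 6, against 38.8%, and TATAAA in 1 and 0, against 12.5%. A direct repeat of AGGTCA with 1 base between the copies, a pattern bound by PPAR and RXR pairs, was in none of either group and in 0.0448% of genes. TCAAGGTCA, bound by estrogen-related receptors, was in none and in 0.333%. A match describes the letters in the window only.

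The citric acid cycle, which oxidises the acetyl-CoA that fatty acids supply, followed the same order. Of 20 measured genes of pyruvate dehydrogenase and the cycle, 3 were higher with all arrays, none without ascending aorta replicate 2, replicate 3 or mesenteric artery replicate 3, and 19 without ascending aorta replicate 1. The median differences were 1.25 and 1.59. Over all genes 0.135% were higher with all arrays and 2.43% without that array. The 3 were Idh3a, the catalytic subunit of NAD-dependent isocitrate dehydrogenase, and Sucla2 and Suclg1, subunits of succinyl-CoA ligase. Sucla2 levels were 7.63, 8.80 and 8.59 in ascending aorta and 6.57, 6.37 and 5.97 in mesenteric artery, and the difference was 2.03 ± 0.28 (adjusted p = 0.0119) and 2.39 ± 0.22 without replicate 1. Idh3a levels were 6.39, 7.76 and 7.69 in ascending aorta and 5.43, 5.45 and 5.58 in mesenteric artery. The mesenteric arrays of Idh3a lay close together and below all aortic arrays, a difference of 1.80 ± 0.31 (adjusted p = 0.0436). Without replicate 1 it was 2.24 ± 0.21. Suclg1 differed by 1.76 ± 0.28 (adjusted p = 0.0346) and by 2.17 ± 0.19 without replicate 1. Suclg2, the GTP-specific partner of Suclg1, was the 1 gene not called without replicate 1, at 0.88 ± 0.24 (adjusted p = 0.0757).

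Of 76 measured subunits of oxidative phosphorylation, 3 were higher with all 12 arrays and 61 without replicate 1, and none was lower. Over all genes 0.135% and 2.43% were higher. The median differences of the subunits were 0.81 and 1.16, smaller than those of fatty acid oxidation and the citric acid cycle. Without replicate 1, complex I had 31 of 34 higher, complex II 4 of 4, complex III 9 of 10, complex IV 10 of 13 and ATP synthase 7 of 15. When ascending aorta replicate 2 was left out as well, these counts were 18, 2, 7, 4 and 3. Ndufab1, the acyl carrier protein of complex I, is an example, with levels of 8.55, 9.996 and 9.94 in ascending aorta and 7.96, 8.34 and 7.84 in mesenteric artery and differences of 1.45 ± 0.32 (adjusted p = 0.128) and 1.92 ± 0.20 (adjusted p = 0.000187). Replicate 1 lay just above the highest mesenteric array for Ndufab1, and replicates 2 and 3 lay well above it. At the other end, Atp5g1, which encodes the rotor subunit c of ATP synthase, had levels of 8.07, 7.64 and 8.12 in ascending aorta and 7.97, 8.54 and 8.46 in mesenteric artery and Atp5j differed by -0.10 ± 0.18 without replicate 1. Neither passed in either model.

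The 3 subunits called with all arrays, Cox7a1, Cox8b and Cox5a, belong to complex IV, cytochrome c oxidase. Cox7a1 and Cox8b are forms found in heart, skeletal muscle and brown fat, with counterparts, Cox7a2 and Cox8a, in most tissues. Cox7a1 levels were 8.96, 11.07 and 10.91 in ascending aorta and 4.93, 6.85 and 4.94 in mesenteric artery, with mesenteric artery replicate 2 above its fellows, as for Ucp1. The Cox7a1 difference was 4.74 ± 0.55 (adjusted p = 0.00483), and 5.42 ± 0.44 without replicate 1. Cox7a2 levels were 8.23, 9.30 and 9.48 in ascending aorta and 8.65, 8.80 and 8.46 in mesenteric artery, so replicate 1 was below every mesenteric array, and the difference was 0.36 ± 0.27 (adjusted p = 0.954) and 0.75 ± 0.18 (adjusted p = 0.0401). Cox8b levels were 10.70, 12.21 and 12.01 in ascending aorta and 7.22, 8.83 and 7.83 in mesenteric artery and Cox8a levels were 9.07, 10.08 and 10.02 in ascending aorta and 9.07, 8.95 and 8.96 in mesenteric artery. Cox8b separated the vessels by 3.68 ± 0.41 (adjusted p = 0.00472), while Cox8a differed by 0.73 ± 0.24 (adjusted p = 0.39). Without replicate 1 these differences were 4.15 ± 0.34 and 1.06 ± 0.18. Cox5a, a subunit common to all tissues, differed by 1.38 ± 0.23 (adjusted p = 0.038) and by 1.67 ± 0.19.

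Paired forms were compared within each array as the log2 ratio of the tissue-restricted to the common form, and the ratios were tested between vessels with a 2-sided exact permutation test, which with 3 against 3 arrays cannot go below 0.1. The ratio of Cox7a1 to Cox7a2 ran from 0.73 to 1.78 in ascending aorta and from -3.72 to -1.95 in mesenteric artery, a shift of 4.38 (exact p = 0.1, 0.2 after adjustment over 6 pairs). The shifts of Cox8b over Cox8a and of Fabp3 over Fabp5 were 2.95 and 3.09, with the same exact p, and the vessels did not overlap. For the other 3 pairs the vessels overlapped with all arrays. Cox6a2 over Cox6a1 shifted by -1.13, Cox4i2 over Cox4i1 by -0.94 and Slc25a4 over Slc25a5 by -0.75, with exact p of 0.4, 0.3 and 0.3. Without replicate 1 the 6 shifts, in the same order, were 4.67, 3.09, 3.35, -1.86, -1.51 and -0.35. The exact p was then 0.1, the lowest possible with 10 rearrangements, for every pair but Slc25a4 over Slc25a5, at 0.6. Cox6a2 over Cox6a1 and Cox4i2 over Cox4i1 no longer overlapped, and both ratios were lower in ascending aorta. In these 2 ratios both forms moved. Cox6a2 and Cox4i2 differed by -0.96 and -0.51, and the common Cox6a1 and Cox4i1 by 0.89 and 1.002. A ratio within an array also depends on its probe sets, so the shifts between vessels are what is compared.

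The upstream sequences of Cox7a1 and Cox7a2 show how the members of that pair differ before their starts. Cox7a1, on chromosome 7, has 2 copies of CCAAT on the minus strand, which read ATTGG in capitals on the strand shown, no GC box, and 4 CpG dinucleotides in 250 bases. Cox7a2, on chromosome 9, has 1 GC box in capitals and 14 CpG. The median over 15614 genes was 12 CpG. The windows are chr7:30183921-30184170 on the plus strand and chr9:79759854-79760103 on the minus strand of GRCm38.p6:

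Cox7a1: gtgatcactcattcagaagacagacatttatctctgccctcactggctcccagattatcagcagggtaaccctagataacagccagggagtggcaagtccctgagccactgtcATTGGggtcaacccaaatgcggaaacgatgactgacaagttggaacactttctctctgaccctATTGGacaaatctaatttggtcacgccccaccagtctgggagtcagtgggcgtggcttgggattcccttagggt

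Cox7a2: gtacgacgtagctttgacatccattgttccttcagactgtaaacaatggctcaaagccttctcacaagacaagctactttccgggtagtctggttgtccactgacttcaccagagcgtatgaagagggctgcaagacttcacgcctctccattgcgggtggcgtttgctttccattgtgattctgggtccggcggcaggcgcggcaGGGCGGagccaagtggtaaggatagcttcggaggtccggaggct

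Genes shared by brown and white adipocytes formed another list. Of 20 measured, 2 were higher with all arrays, Gpd1 and Pck1, none without ascending aorta replicate 2, its replicate 3 or mesenteric artery replicate 3, and 12 without replicate 1, with median differences of 1.17 and 1.70. Gpd1, which makes the glycerol backbone of triglycerides, had levels of 7.56, 9.61 and 9.42 in ascending aorta and 4.98, 5.77 and 5.39 in mesenteric artery, and its mitochondrial partner Gpd2 had levels of 7.29, 8.52 and 8.37 in ascending aorta and 5.69, 6.39 and 5.46 in mesenteric artery. Together these enzymes form the glycerol phosphate shuttle, and they differed by 3.49 ± 0.47 and 2.21 ± 0.32 (adjusted p = 0.0093 and 0.0139), and by 4.14 ± 0.32 and 2.60 ± 0.26 without replicate 1. Pck1, which supplies glycerol phosphate in fat, differed by 2.52 ± 0.38 (adjusted p = 0.0208) and by 2.85 ± 0.36 without replicate 1. In all, 19 of the 20 differences were positive, 13 genes were higher and 0 lower at an unadjusted p below 0.05 in limma, and 11 did not overlap, with ascending aorta above. Without replicate 1 all 20 were positive and 18 did not overlap. Over all genes, ascending aorta lay above without overlap in 4.73% with all arrays and in 13.5% without replicate 1. The shares of all genes called higher were 0.135% and 2.43%. The 3 that follow had the lowest differences of the list, were chosen after their values were seen, and do not stand for it. Retn, which encodes the hormone resistin, had levels of 6.15, 8.70 and 9.77 in ascending aorta and 8.43, 8.80 and 8.37 in mesenteric artery, Adipoq, which encodes adiponectin, 7.62, 8.77 and 9.67 in ascending aorta and 8.27, 8.45 and 7.98 in mesenteric artery, and Cidec, a lipid droplet gene, 7.71, 8.80 and 9.39 in ascending aorta and 9.39, 7.84 and 7.47 in mesenteric artery. For Retn the order turned with replicate 1, at -0.32 ± 0.66 with it and 0.70 ± 0.34 without it, and neither difference passed.

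Fatty acid and triglyceride synthesis showed the same dependence on replicate 1. Of 20 measured genes, none was called by limma with all arrays, where 13 were higher at an unadjusted p below 0.05. Without replicate 1, 14 were called higher, against 2.43% of all genes. That count was 6 when replicate 2 or replicate 3 was left out as well. Fasn, which encodes fatty acid synthase, had levels of 6.79, 10.11 and 10.18 in ascending aorta and 6.64, 7.90 and 6.95 in mesenteric artery. Replicate 1 lay inside the mesenteric range and the other aortic arrays well above it, with differences of 1.86 ± 0.71 (adjusted p = 0.543) and 2.98 ± 0.36 (adjusted p = 0.000518). Without replicate 1, Dgat2, which completes triglycerides, differed by 2.92 ± 0.38 and Elovl6, an elongase, by 2.88 ± 0.50. Nrg4, a factor secreted by brown fat, had levels of 4.41, 6.52 and 6.41 in ascending aorta and 3.34, 4.17 and 3.43 in mesenteric artery, and differed by 2.82 ± 0.32 without replicate 1 (adjusted p = 0.000307), against 2.14 ± 0.48 with it (adjusted p = 0.135). The 5 brown adipocyte markers averaged between 6.92 and 7.75 in ascending aorta and between 3.55 and 4.68 in mesenteric artery. They include Ucp1, Cidea and Cox7a1, called above, so their average is not separate evidence. The 5 general adipocyte markers averaged 6.87, 8.32 and 8.70 in ascending aorta and 7.32, 7.06 and 6.76 in mesenteric artery. Only replicate 1 lay in the mesenteric range, and replicates 2 and 3 lay above it. Without replicate 1, 3 of the 5 were called higher, and with all arrays 0. With the average of the lymphocyte lists entered in the model, the counts of higher genes without replicate 1 were 5 of 18 brown adipocyte genes, 3 of 20 adipocyte genes, 10 of 21 fatty acid oxidation genes, 6 of 20 cycle genes and 11 of 34 complex I genes. The B cell list averaged 4.07 and 4.03 in those ascending aorta arrays and 4.96, 6.83 and 6.54 in mesenteric artery. The covariate thus ran partly with the vessel, and the model cannot separate them. The part that fat attached to the samples had in the metabolic differences was not tested.

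The descending aorta, which shares the mesenteric arrays as its comparator in this series, gives a reference for these levels. Means ± SD over its 3 arrays were 11.49 ± 0.169 for Ucp1, 8.55 ± 0.24 for Cidea, 9.69 ± 0.219 for Gpd1 and 10.34 ± 0.236 for Fabp3. In 26 of the 27 higher genes the descending aorta mean was above that of ascending aorta. Of the 35 genes, 0 passed between the 2 parts of the aorta in limma, where 3 of all genes passed, 0.015%, and 19 of the 35 had an unadjusted p below 0.05. The smallest adjusted p among the 35 was 0.189, for Pank1.

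Other genes higher with all arrays had varied roles. Chchd10, a protein of mitochondrial cristae, had levels of 8.64, 10.18 and 9.92 in ascending aorta and 7.62, 7.18 and 6.89 in mesenteric artery and differed by 2.35 ± 0.34 (adjusted p = 0.0139) and by 2.82 ± 0.23 without replicate 1. Pank1, the first enzyme of coenzyme A synthesis, had levels of 4.93, 5.39 and 5.13 in ascending aorta and 3.08, 3.17 and 3.17 in mesenteric artery, a narrow spread in each vessel, and differed by 2.01 ± 0.23 (adjusted p = 0.00472) and by 2.12 ± 0.25 without replicate 1. Mme, which encodes the peptidase neprilysin, differed by 1.86 ± 0.24, Coq8a, a gene of coenzyme Q synthesis, by 1.84 ± 0.32, and Letmd1, a mitochondrial membrane protein gene, by 1.45 ± 0.25, and without replicate 1 by 2.05 ± 0.24, 2.29 ± 0.21 and 1.69 ± 0.23. Their adjusted p with all arrays were 0.00877, 0.0436 and 0.0389. Pfkfb3, which sets the level of a potent activator of glycolysis, differed by 1.30 ± 0.17 (adjusted p = 0.0093) and by 1.32 ± 0.20 without replicate 1. Cxcl12, a chemokine of stromal and arterial endothelial cells, had levels of 6.37, 6.87 and 6.04 in ascending aorta and 4.83, 4.92 and 5.13 in mesenteric artery and differed by 1.46 ± 0.23 (adjusted p = 0.0333) and by 1.49 ± 0.26 without replicate 1.

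Tes, a focal adhesion gene, had levels of 6.92, 6.11 and 6.56 in ascending aorta and 5.16, 5.36 and 5.23 in mesenteric artery, a difference of 1.28 ± 0.21 (adjusted p = 0.0347) and of 1.09 ± 0.21 without replicate 1. Its highest value was in replicate 1, unlike most of the 27, and its descending aorta mean was 5.41 ± 0.143.

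The 8 genes lower in ascending aorta included genes of muscle, endothelium and nitric oxide metabolism. All 8 were also lower in descending aorta than in mesenteric artery at an adjusted p below 0.05 in limma, against 0.361% of all genes. Pcp4, a small calmodulin-binding protein found in smooth muscle of gut arteries and neurons, had levels of 4.90, 4.67 and 3.96 in ascending aorta and 10.60, 8.37 and 7.69 in mesenteric artery. Every mesenteric array lay far above every aortic array, with mesenteric artery replicate 1 highest, and the level was 20.7-fold higher in mesenteric artery (difference -4.37 ± 0.56, adjusted p = 0.00877). The difference was -4.57 ± 0.61 without ascending aorta replicate 1. Pcp4 means ± SD were 4.38 ± 0.385 in descending aorta and 4.50 ± 0.134 in coronary artery. Without ascending aorta replicate 2 or replicate 3 the adjusted p of Pcp4 was 0.052 and 0.0572. Ddah1, which breaks down the nitric oxide synthase inhibitor ADMA, had levels of 4.37, 3.69 and 3.55 in ascending aorta and 6.54, 5.85 and 7.06 in mesenteric artery and differed by -2.62 ± 0.35 (adjusted p = 0.00902) and by -2.87 ± 0.35 without replicate 1. Tmem88, an endothelial inhibitor of Wnt signalling, had levels of 4.89, 4.06 and 4.71 in ascending aorta and 6.90, 6.44 and 7.17 in mesenteric artery and differed by -2.29 ± 0.26 (adjusted p = 0.00472) and by -2.46 ± 0.27 without replicate 1. Abcg2, an efflux pump of small-vessel endothelium and stem cells, had levels of 4.26, 3.79 and 3.88 in ascending aorta and 7.21, 5.37 and 6.06 in mesenteric artery and differed by -2.23 ± 0.36 (adjusted p = 0.0346) and by -2.38 ± 0.39 without replicate 1.

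Egln3, an oxygen-sensing hydroxylase, differed by -1.91 ± 0.24, Spon2, a secreted matrix gene, by -1.84 ± 0.30, Adgrg6, an adhesion receptor, by -1.35 ± 0.23 and Nrarp, a feedback inhibitor of Notch, by -1.19 ± 0.20. Their adjusted p were 0.00877, 0.037, 0.038 and 0.038, and the differences without replicate 1 were -1.997 ± 0.27, -1.49 ± 0.26, -1.31 ± 0.25 and -1.08 ± 0.22. Egln3 levels were 4.01, 3.54 and 3.96 in ascending aorta and 5.98, 5.32 and 5.94 in mesenteric artery, with no overlap. Of 27 measured endothelial genes, Tmem88 and Abcg2 were lower with all arrays and none was higher, with 9 lower and 1 higher at an unadjusted p below 0.05 in limma, and a median difference of -0.86. Without replicate 1, 3 were lower and 1 higher, with a median of -0.51. Over all genes 0.0401% were lower with all arrays, and without replicate 1 0.722% were lower and 2.43% higher. The 7 endothelial markers averaged 5.28, 6.26 and 6.63 in ascending aorta and 7.77, 5.70 and 6.75 in mesenteric artery, and their part in these differences was not tested.

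The median of the smooth muscle list changed sign with ascending aorta replicate 1. Of 29 measured, Pcp4 was lower in both models and Itga8, an integrin of contractile smooth muscle, was higher without replicate 1, and the median difference was -0.28 with all arrays and 0.21 without that array. With all arrays 19 of the 29 differences were negative, 7 genes were lower and 1 higher at an unadjusted p below 0.05 in limma, and 5 lay below and 0 above without overlap. Without replicate 1, 19 were positive, with 5 lower and 4 higher at that p, and 5 below and 2 above without overlap. Over all genes 4.62% lay below and 4.73% above without overlap with all arrays, and 13.7% and 13.5% without replicate 1. Itga8 levels were 6.55, 8.86 and 8.97 in ascending aorta and 7.26, 3.68 and 4.0 in mesenteric artery, so mesenteric artery replicate 1 lay close to the aorta and its other arrays far below. The difference was 3.15 ± 0.82 (adjusted p = 0.219) and 3.93 ± 0.75 without replicate 1 (adjusted p = 0.0114), and the call was lost when ascending aorta replicate 2 or 3 was also left out. Des, which encodes the intermediate filament desmin, had levels of 4.95, 4.40 and 4.39 in ascending aorta and 9.17, 6.30 and 5.74 in mesenteric artery, and Pln, which encodes phospholamban, 4.39, 4.85 and 4.42 in ascending aorta and 9.89, 6.42 and 6.94 in mesenteric artery. For both the vessels did not overlap and mesenteric artery replicate 1 was highest. The differences of -2.49 ± 0.66 and -3.19 ± 0.82 did not pass (adjusted p = 0.227 and 0.215), nor did those of -2.68 ± 0.71 and -3.11 ± 0.90 without ascending aorta replicate 1 (adjusted p = 0.0671 and 0.0934).

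**Figure D4:**
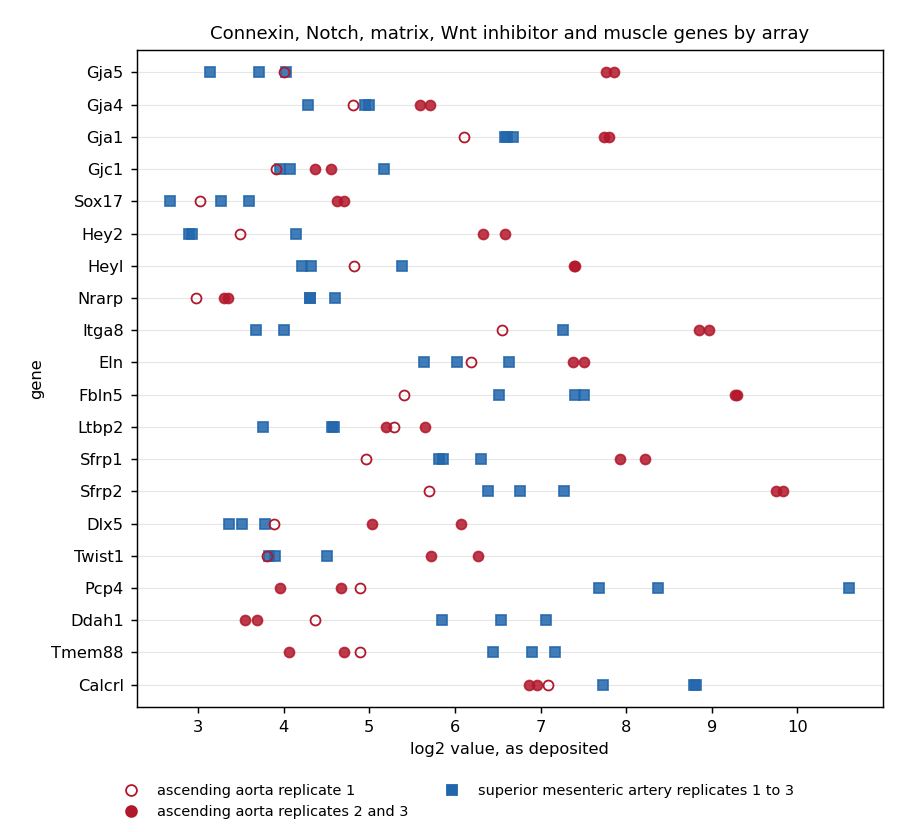
Log2 level (horizontal axis) of 20 genes of the vessel wall in the 6 arrays, 1 row per gene, with symbols as in the plot of marker means. For Gja5, Hey2, Sfrp1, Sfrp2 and Fbln5 the open circle of ascending aorta replicate 1 lies among or below the squares, while the filled circles lie to the right of all of them, and for Pcp4, Ddah1 and Tmem88 all 3 aortic arrays lie to the left.

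Genes of the vessel wall passed mainly in the model without ascending aorta replicate 1, which sets 2 aortic arrays against 3. A fit that leaves out a further ascending aorta array rests on 1, with the spread taken from the other vessels. Of the 628 genes called in that model, 0 passed between ascending and descending aorta in limma, where 2 of all genes passed. Over all genes 2.43% were called higher and 0.722% lower than in mesenteric artery. Genes whose 2 aortic arrays lay above all 3 mesenteric arrays made up 13.5% of all genes, and 13.7% lay below. Gja5, which encodes the main gap junction protein of arterial endothelium, had levels of 3.999, 7.86 and 7.77 in ascending aorta and 4.02, 3.14 and 3.71 in mesenteric artery. Replicate 1 was at the mesenteric level and the other aortic arrays far above it. The difference was 2.92 ± 0.82 with all arrays (adjusted p = 0.268) and 4.19 ± 0.42 without replicate 1 (adjusted p = 0.000157). The latter call held when any array of another vessel was also left out. Gja1, a connexin gene of many cell types, had levels of 6.10, 7.80 and 7.74 in ascending aorta and 6.58, 6.61 and 6.68 in mesenteric artery and differed by 1.15 ± 0.21 without replicate 1 (adjusted p = 0.00965), against 0.59 ± 0.37 with it (adjusted p = 0.886). Gja4 and Gjc1, the other connexins listed, differed by 0.91 ± 0.32 and 0.06 ± 0.32 and did not pass (adjusted p = 0.193 and 0.978).

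Targets and regulators of the Notch pathway, which sets arterial identity, split by direction. Without replicate 1, 2 of 19 measured were higher and 2 lower, against 2.43% and 0.722% of all genes. Hey2 and Heyl, transcription factors induced by Notch, had levels of 3.49, 6.58 and 6.32 in ascending aorta and 4.15, 2.93 and 2.90 in mesenteric artery, and of 4.82, 7.39 and 7.40 in ascending aorta and 5.38, 4.32 and 4.21 in mesenteric artery. Replicate 1 lay inside the mesenteric range of each, and without it the differences were 3.13 ± 0.36 and 2.76 ± 0.33 (adjusted p = 0.000335 and 0.000518). With it they were 2.14 ± 0.65 and 1.90 ± 0.57 (adjusted p = 0.317 and 0.315). Nrarp and Lfng, which modulates Notch receptors with sugars, were lower, by -1.08 ± 0.22 and -1.36 ± 0.31. Lfng levels were 6.90, 5.17 and 5.74 in ascending aorta and 6.49, 6.90 and 7.05 in mesenteric artery, and both calls were lost when ascending aorta replicate 2, its replicate 3 or mesenteric artery replicate 3 was also left out. Sox17, an arterial endothelial transcription factor, had levels of 3.03, 4.62 and 4.71 in ascending aorta and 3.60, 3.27 and 2.68 in mesenteric artery and differed by 1.48 ± 0.25 (adjusted p = 0.00584), a call lost without either of the 2 aortic arrays. Hes1, another Notch target, did not pass, at -0.62 ± 0.25 (adjusted p = 0.273).

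Matrix genes followed in part. Of 20 measured elastic fibre genes, 3 were higher without replicate 1, against 2.43% of all genes. With it none passed in limma, 2 being higher and 3 lower at an unadjusted p below 0.05. The 3 were Eln, which encodes elastin, Fbln5, whose product is needed to assemble elastic fibres, and Ltbp2. Eln levels were 6.19, 7.38 and 7.51 in ascending aorta and 6.63, 5.64 and 6.02 in mesenteric artery and Fbln5 levels were 5.41, 9.27 and 9.30 in ascending aorta and 7.51, 6.51 and 7.40 in mesenteric artery. Without replicate 1 they differed by 1.34 ± 0.27 and 2.14 ± 0.27 (adjusted p = 0.0144 and 0.000795), and with it by 0.93 ± 0.34 and 0.85 ± 0.77 (adjusted p = 0.49 and 0.974). Eln did not pass when ascending aorta replicate 2, replicate 3 or mesenteric artery replicate 3 was also left out. Ltbp2 was unlike these in that replicate 1 lay with its group, at 5.28, 5.65 and 5.19 in ascending aorta and 4.57, 4.58 and 3.76 in mesenteric artery, with a difference of 1.07 ± 0.24 (adjusted p = 0.14) and of 1.12 ± 0.27 without that array (adjusted p = 0.0448). Fibrillar collagens Col1a2 and Col3a1 differed by 0.82 ± 0.21 and -0.17 ± 0.24 without replicate 1 and did not pass, and of 23 collagens 1, Col4a4, was higher, at 0.75 ± 0.18 (adjusted p = 0.0441). Of 29 matricellular genes and proteoglycans, 5 were higher, Thbs2, Comp, Ccn5, Omd and Spon1, with differences from 0.99 to 1.60, and Spon2 was lower. Thbs2, an inhibitor of vessel growth, was the 1 of the 5 with an adjusted p under 0.01, at 1.53 ± 0.23 (adjusted p = 0.00215).

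Secreted inhibitors of Wnt signalling were among the higher genes without replicate 1. Of 32 measured Wnt pathway genes 4 were higher, of which Sfrp1, Sfrp2 and Frzb encode inhibitors and Wnt5a a ligand. Sfrp2 levels were 5.70, 9.83 and 9.75 in ascending aorta and 6.38, 6.77 and 7.27 in mesenteric artery and Sfrp1 levels were 4.96, 7.92 and 8.21 in ascending aorta and 6.30, 5.86 and 5.82 in mesenteric artery. Replicate 1 was the lowest of all 6 arrays for both genes, and the 2 other aortic arrays the highest. The differences were 2.98 ± 0.23 (adjusted p = 4.08e-05) and 2.08 ± 0.30 (adjusted p = 0.00157) without replicate 1, and 1.62 ± 0.80 and 1.04 ± 0.65 with it, where neither passed. Transcription factors of neural crest and mesenchyme had 5 of 22 higher and 1 lower. Over all genes 2.43% were higher and 0.722% lower in that model. Dlx5 had levels of 3.89, 5.04 and 6.08 in ascending aorta and 3.52, 3.36 and 3.78 in mesenteric artery and Twist1 3.81, 5.72 and 6.27 in ascending aorta and 3.82, 4.51 and 3.90 in mesenteric artery, with differences of 2.004 ± 0.30 and 1.92 ± 0.25 (adjusted p = 0.00233 and 0.000795) without replicate 1 and of 1.45 ± 0.41 and 1.19 ± 0.47 with it (adjusted p = 0.279 and 0.569). Foxc1, Prrx2 and Snai2 differed by 1.87, 1.07 and 1.07, and Ets1, which lymphocytes also express, by -1.10. Of the cardiac list Tbx18, an epicardial and mural cell factor, and Fgf10, a signal of the second heart field, were higher by 1.48 ± 0.34 and 1.51 ± 0.33 (adjusted p = 0.0318 and 0.0241). Fibroblast markers moved with these genes, at 6.19 in replicate 1 and 8.23 and 8.08 in replicates 2 and 3, against 7.45 to 7.88 in mesenteric artery, and their part in the differences was not tested.

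Among the other genes with the 20 largest differences without replicate 1 were Itgbl1, an integrin-like matrix gene, at 3.14 ± 0.29, Tmem45b at 4.05 ± 0.48 and Gxylt2, a sugar transferase that acts on Notch, at 2.90 ± 0.33. Itgbl1 levels were 4.66, 8.48 and 7.75 in ascending aorta and 4.99, 4.44 and 5.49 in mesenteric artery. As with Gja5, replicate 1 had the mesenteric level. Fits that leave out a further ascending aorta array rest on 1 array of that vessel. Of the 20 genes, 17 passed in every fit that left out a further array, the exceptions being Itga8, Pdk4 and Elovl6.

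Of the 144 genes lower in that model, 7 were in the B or T cell lists, which held 15 measured genes each. Among the 20 largest differences in that direction, Jchain, which links antibodies of plasma cells, had levels of 9.67, 3.43 and 3.51 in ascending aorta and 7.64, 8.05 and 7.13 in mesenteric artery. Replicate 1 was above every mesenteric array, and replicates 2 and 3 were far below all of them. The difference was -4.14 ± 0.26 (adjusted p = 5.30e-06) without replicate 1 and -2.07 ± 1.20 (adjusted p = 0.843) with it. Cxcl13, the chemokine that draws B cells into follicles, had levels of 9.69, 4.09 and 6.08 in ascending aorta and 8.22, 10.75 and 10.45 in mesenteric artery and differed by -4.72 ± 0.91 without replicate 1 (adjusted p = 0.0116), against -3.19 ± 1.20 with it (adjusted p = 0.535). Igha, Igkv9-120, Cd2, Fcer2a, Il7r, Fcmr, Hcst, Gimap6 and Ikzf3, genes of lymphocytes, differed by -3.56 to -2.22. Immunoglobulin segments are near-identical copies, and their probe sets may not tell them apart.

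Of 15 measured B cell genes 5 were lower without replicate 1, and of 15 T cell genes 2 were, against 0.722% of all genes. With all arrays none of either list passed in limma, nor had an unadjusted p below 0.05. Median differences went from -0.68 to -1.95 and from 0.07 to -1.03. The B cell count was 1 when ascending aorta replicate 2 or replicate 3 was also left out, and 15 without mesenteric artery replicate 1, whose B cell markers averaged 5.37. Of the 144 lower genes, replicate 1 was above the highest mesenteric array in 76. Of the 484 higher genes, it was at or below the highest mesenteric array in 285. Other genes of that side were not lymphoid. Slpi, a protease inhibitor of mucosal surfaces, had levels of 8.59, 5.16 and 6.25 in ascending aorta and 8.74, 10.04 and 9.66 in mesenteric artery, and Alox15, a lipoxygenase of peritoneal macrophages, 4.32, 3.80 and 5.88 in ascending aorta and 6.34, 9.32 and 8.93 in mesenteric artery. Alox15 was the highest in mesenteric artery replicates 2 and 3, and differed by -3.53 ± 0.77 with all arrays (adjusted p = 0.12) and by -3.36 ± 0.84 without replicate 1 (adjusted p = 0.04997). Grem1, a BMP antagonist, had levels of 6.32, 3.96 and 3.96 in ascending aorta and 8.32, 5.28 and 6.28 in mesenteric artery and differed by -2.67 ± 0.60 without replicate 1 (adjusted p = 0.0288).

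**Figure D5:**
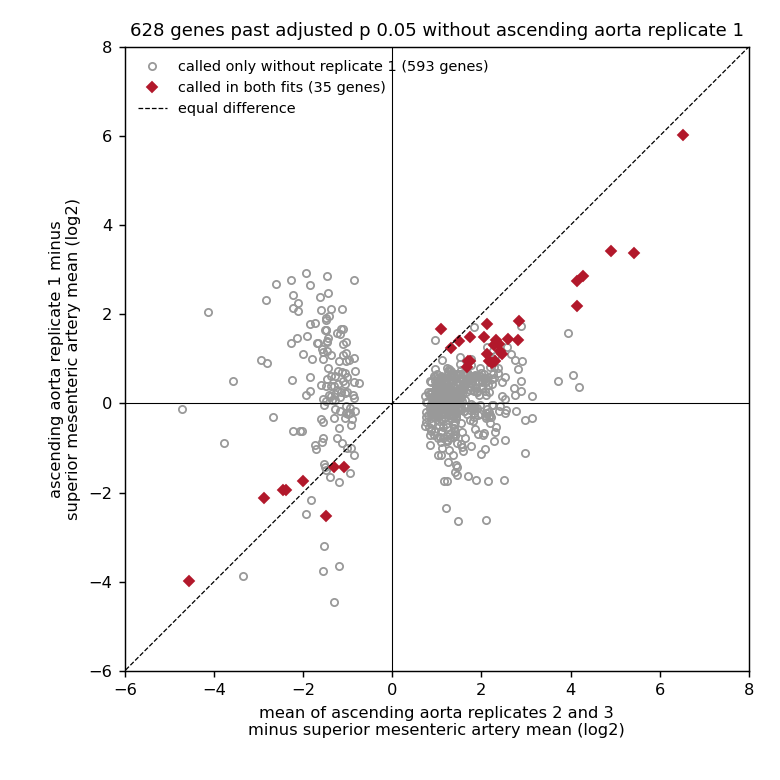
Each of the 628 genes called without ascending aorta replicate 1, with the mean of replicates 2 and 3 minus the mesenteric mean on the horizontal axis and replicate 1 minus the mesenteric mean on the vertical axis, both in log2 units. Filled diamonds are the 35 genes called in both models and open circles the other 593, and the dashed line marks equal differences. Diamonds lie in the same direction on both axes, whereas open circles on the right lie around 0 on the vertical axis and many on the left lie above 0.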

How the data were processed

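Total RNA was extracted with Trizol and labelled cRNA was made from 6 ug per array, per the labels' protocols. The authors deposited log2 expression values for 35556 probe sets in 12 arrays, made with RMA in Partek 6.6 per the submitters' processing notes. They were used as deposited. Of the probe sets, 21789 had 1 gene symbol in the platform annotation, 1621 several and 12146 none. Probe sets with 1 symbol were kept, the one with the highest mean per gene (999 genes had several), which gave 19938 genes, and 21698 matched the RefSeq gene table. A model with 1 mean per vessel was fitted with limma 3.58.1 in R 4.3.3 (lmFit, contrast, eBayes) and p-values were adjusted by Benjamini-Hochberg over all genes. The spread was estimated from all 4 vessels, with 8 residual degrees of freedom, or 7 without ascending aorta replicate 1. The script was tested on simulated data.

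Isoform ratios were tested with exact permutation tests. Members, gene lists and tests were chosen with earlier results of these data known. Genes named are those called with 12 arrays, the 20 largest called differences in each direction without replicate 1, called list members and up to 6 others per list with the largest differences, and both genes of each isoform pair, and gene models without a name were skipped. Adipoq, Retn, Cidec, Cpt1a, Ppargc1a, Elovl3, Suclg2, Atp5g1 and Atp5j were named after their values were seen. Promoter sequences and positions are from RefSeq on GRCm38.p6. Alternatives were normalization, centring, filters, probe set choice, array weights, a variance trend, a replicate block, covariates, thresholds and left-out arrays. Array intensities before normalization were not used here.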

Additional observations from a re-analysis of the deposited data

How the results depend on the processing

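Counts of genes higher and lower than in mesenteric artery moved with several settings. With all 12 arrays (27 and 8), renewed quantile normalization gave 43 and 13, array weights 354 and 89, the lymphoid mean as a covariate 159 and 100, leaving out the 3 arrays that carried another tissue's transcripts 289 and 41, and an adjusted p below 0.01 gave 10 and 4. Fitting only the arrays of the pair gave 0 and 0, with 506 and 418 at an unadjusted p below 0.05 in limma. Leaving out 1 array gave from 5 to 484 higher and from 1 to 144 lower. Without ascending aorta replicate 1 (484 and 144), array weights gave 389 lower, the pair alone 215 and 25, the lymphoid covariate 90 and 42, leaving out the 3 arrays 289 and 41, and an adjusted p below 0.01 gave 256 and 32. Leaving out a further array gave from 203 to 780 higher and from 13 to 560 lower. The labels do not say whether equal replicate numbers mark the same animal. Correlations of same-numbered deviations from each vessel's mean were -0.25, -0.22 and 0.01. They cannot decide it, as the deviations within a vessel are tied to one another by their shared mean. With a replicate block the counts were 17 and 6, and 431 and 136. Of the 98 recomputed counts 48 stayed within 1.5 times, and the 48 isoform ratios kept their direction. No difference of a named gene called in the main model turned its direction. The cause of these changes was not tested. With 2 or 3 arrays a vessel, number limits the precision, and levels near background compress folds.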

Other observations

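Receptors, channels and oxygen response genes were described as further lists. Without ascending aorta replicate 1, 2.43% of all genes were called higher and 0.722% lower. For scale, 750 of all 19938 genes were higher and 689 lower at an unadjusted p below 0.05 in limma with all arrays. Without replicate 1 these counts were 1438 and 1266. Of 23 measured receptors for vasoactive signals 1 was lower in ascending aorta without its replicate 1: Calcrl, the receptor for the vasodilators CGRP and adrenomedullin. Calcrl levels were 7.09, 6.87 and 6.96 in ascending aorta and 8.81, 7.72 and 8.80 in mesenteric artery, with no overlap, and it differed by -1.47 ± 0.29 with all arrays (limma adjusted p = 0.0867) and by -1.53 ± 0.32 without replicate 1 (adjusted p = 0.0196). Ednrb, an endothelin receptor, had levels of 4.02, 5.10 and 5.61 in ascending aorta and 6.25, 7.51 and 6.79 in mesenteric artery and did not pass (adjusted p = 0.121 and 0.0531). Of 24 potassium channel genes, Kcnab1, a channel subunit, was higher without replicate 1, at 1.40 ± 0.26 (adjusted p = 0.0106), and of 25 calcium and cation channel genes 0 passed in limma in either model, with 1 higher and 2 lower at an unadjusted p below 0.05 in each. Among 20 hypoxia response genes, Vegfa, the growth factor of vessels, Pgk1, a glycolytic enzyme, Higd1a and Pfkfb3 were higher without replicate 1 and Egln3 was lower, 5 of 20 against 3.15% of all genes. With all arrays Pfkfb3 was higher and Egln3 lower. Vegfa levels were 6.05, 6.55 and 6.98 in ascending aorta and 6.09, 5.53 and 5.72 in mesenteric artery, and replicate 1 lay among the mesenteric arrays.

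Genes of body position and of other tissues were listed with these results. Of 14 Hox genes of groups 1 to 5 and 23 of groups 6 to 13, 0 passed in limma in either model, with 2 and 5 lower at an unadjusted p below 0.05 with all arrays. Hoxb6 had levels of 4.49, 3.92 and 4.12 in ascending aorta and 5.52, 4.46 and 5.88 in mesenteric artery, a difference of -1.11 ± 0.33 (adjusted p = 0.308) and of -1.26 ± 0.36 without replicate 1 (adjusted p = 0.0837). Of 21 transcription factors of splanchnic and trunk mesoderm 0 passed in limma, with 1 higher and 4 lower at an unadjusted p below 0.05 with all arrays. Wt1, which mesothelium expresses, had levels of 3.91, 4.97 and 5.22 in ascending aorta and 5.86, 6.51 and 6.55 in mesenteric artery, with no overlap, and differed by -1.60 ± 0.39 (adjusted p = 0.179). The mesothelial markers that moved with Wt1 averaged 3.80, 5.95 and 6.69 in ascending aorta and 5.90, 8.10 and 7.87 in mesenteric artery, and their part in it was not tested. Of 10 mesothelial genes, 9 were lower at an unadjusted p below 0.05 in limma with all arrays and 3 without replicate 1, and 0 passed in either model, with median differences of -1.63 and -1.04. Pancreatic acinar genes had large differences and wide spread: of 19, 14 were lower at an unadjusted p below 0.05 in limma and 0 after adjustment. Ctrb1, which encodes a digestive protease, had levels of 3.68, 3.45 and 3.29 in ascending aorta and 7.02, 5.18 and 10.21 in mesenteric artery, with mesenteric artery replicate 3 far above the rest. Of 17 circadian clock genes 0 passed in limma in either model, with 1 higher at an unadjusted p below 0.05 with all arrays and 3 without replicate 1.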
